A study of Mus musculus with 12 samples.

Results

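The RNA response to 6 h of FGFR1 activation was measured in 6 of the 12 libraries of this mouse mammary gland study, 3 from glands of mice given AP20187 and 3 from glands of mice given vehicle. The libraries were taken by assay and treatment alone, and all 7318 genes listed for them entered, of which 7314 passed the filter on low counts. Both groups came from female FVB/N mice at 4 weeks of age that carried MMTV-Wnt1 and MMTV-iFgfr1, so the vehicle group also had the Wnt1 transgene and the uninduced receptor. Both transgenes are driven by MMTV, a viral promoter active chiefly in mammary epithelium. The cells were not sorted: minced glands were digested for 2 h in collagenase with cycloheximide, an inhibitor of translation elongation, and spun briefly to enrich epithelium. The other 6 libraries hold ribosome footprints of the same cell pellets. Mice without iFGFR1 were not given AP20187 in the samples analysed here, so what AP20187 did by itself and what the receptor did cannot be told apart. Nothing in the labels gives the number of mice behind a library, so p-values measure the spread between these libraries, part of which may be technical.

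FGFR1 is a receptor tyrosine kinase that is switched on when its kinase domains are brought together. In iFGFR1 that step is driven by AP20187, a compound that binds an FKBP-type domain on each of a pair of receptors. The active kinase acts through the adaptor FRS2, with GRB2 and the phosphatase SHP2, on the RAS-ERK and PI3K-AKT routes, and through phospholipase C gamma on inositol trisphosphate and calcium. In the mammary gland FGF receptors serve duct growth, and FGF genes are known partners of Wnt1 in MMTV tumours.

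After AP20187, 906 genes rose (12.4% of the genes tested) and 1013 fell (13.9%), so that 26.2% passed the threshold, an adjusted p under 0.05 in edgeR's quasi-likelihood test. Levels below are in CPM, the reads of a gene after each library is brought to the same total with TMM factors, given for libraries 1, 2 and 3 in turn, and changes are log2 fold changes of AP20187 over vehicle with their standard errors (SE, n = 3 a group). The median over all genes tested was 0.01. The 3 AP20187 libraries lay above the 3 vehicle libraries in 1602 genes (21.9%) and below them in 1689 (23.1%). The number of calls turned on 3 libraries: 307 genes rose and 410 fell without vehicle 1, 247 and 291 without vehicle 3, and 388 and 394 without AP20187 1. With each of the 6 libraries left out in turn, 228 rises (3.12%) and 286 falls (3.91%) passed in every fit. A gene named below did so unless the library that ended its call is given with the adjusted p reached without it.

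The summed level of 9 epithelial markers, 5006 to 6012 CPM with vehicle and 7540 to 9717 CPM with AP20187, shows the labelled epithelium in every library. Of these markers 6 rose and 2 fell: the keratin gene Krt7 was at 621, 534 and 669 CPM with vehicle and 146, 248 and 102 CPM with AP20187 (-1.88, adjusted p = 0.00755), and Krt19 at 847, 684 and 723 and 290.2, 378 and 359 CPM (-1.14, adjusted p = 0.0066). The RNA libraries held 94513818 to 251874393 counts over the listed genes, at which 3 counts amount to at most 0.0317 CPM. Wnt1 was counted at 30.6, 45.0 and 11.2 CPM with vehicle and 184, 313 and 165 CPM with AP20187, and Fgfr1 at 339.9, 366 and 268 and 756, 1101 and 575 CPM. Both symbols can hold transgene reads, both rose (2.93 and 1.32, adjusted p = 0.00791 and 0.0106), and neither level checks whether the receptor was dimerized. Markers of stromal cells were lower with AP20187: the summed level of 8 fibroblast markers was 3468 to 6036 CPM with vehicle and 1314 to 1799 CPM with AP20187, and the ratio of the group means was 0.333. That ratio was 0.507 for 5 endothelial markers, 0.325 for 5 adipocyte markers, 0.406 for 7 Schwann cell markers and 0.0596 for 4 mast cell markers. It was 1.56 for the epithelial and 0.698 for 10 basal epithelial markers. Falls passed the threshold in 7 fibroblast, 5 endothelial, 3 adipocyte, 5 Schwann cell and 4 mast cell markers, with 0 rises. Of the basal epithelial markers 4 fell and 1 rose. Most of the adipocyte sum was Fabp4 (mean 217 CPM with vehicle, 39.2 CPM with AP20187) and Cd36 (128 and 30.8 CPM). The highest change of an adipocyte marker was 0.32. Macrophage markers had a ratio of 2.45 over 4 genes (334 to 848 CPM with vehicle, 1181 to 1465 CPM with AP20187). Most of that sum was Cd14, with means of 464 CPM with vehicle and 1242 CPM with AP20187. Only Cd14 rose, and its call was lost without vehicle 1 (0.0774) or vehicle 3 (0.0591) or AP20187 1 (0.0601). The median change over the 4 macrophage markers was 0.15. Skeletal muscle markers summed to 3.19 to 4.75 CPM with vehicle over 2 genes, and lymphocyte markers were not analysed here. In such bulk libraries fewer cells of a type and less RNA per cell cannot be told apart.

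A level also varied with transcript length. The median change was 0.24 for the 381 genes of up to 1000 nucleotides and -0.30 for the 479 genes of over 8000. Relative to the mean of the vehicle libraries, vehicle 2 ran from 0.259 to -0.24 over the same classes, and AP20187 3 ran from 0.495 to -0.557. Vehicle 1 ran the other way, from -0.152 to 0.162, as did vehicle 3, from -0.115 to 0.06. Vehicle libraries thus differed among themselves in this trend, and as they are set against their own mean, a fall in 1 goes with rises in others. In a fit with length offsets, an alternative added after the trend had been seen, 1057 genes rose and 1098 fell, and 1744 of the calls above were among them. Over the 38 lists below and 9 marker lists, 15 counts of rises and 3 of falls moved by more than 1.5 times in that fit, and its counts are given for several lists.

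**Figure D1:**
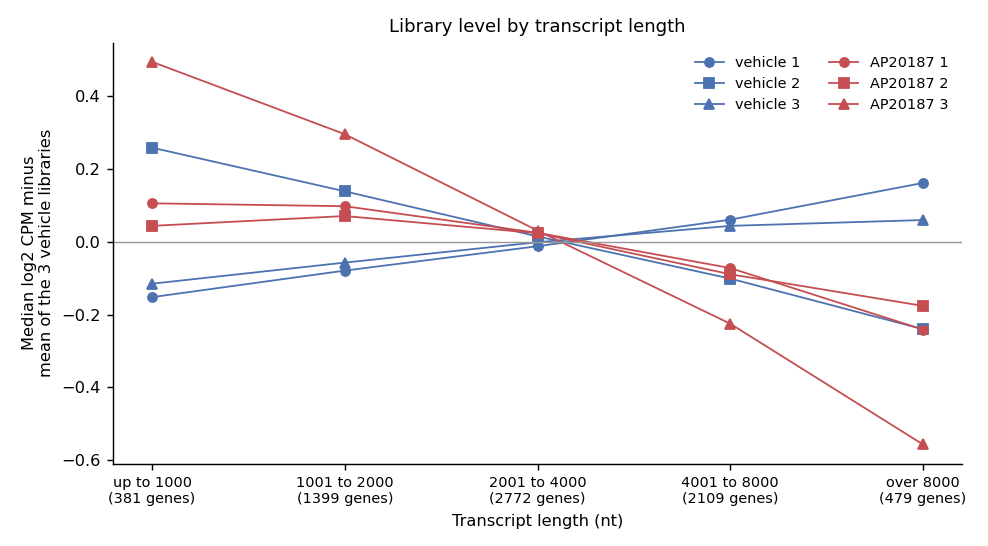
Median log2 CPM of each RNA library minus the mean of the 3 vehicle libraries (y axis), in 5 classes of transcript length in nucleotides (x axis), with 3 vehicle libraries in blue and 3 AP20187 libraries in red. Vehicle 2 falls with length like the AP20187 libraries, from 0.259 to -0.24, and AP20187 3 is steepest, from 0.495 to -0.557. Vehicle 1 and vehicle 3 run the other way, from -0.152 to 0.162 and from -0.115 to 0.06.

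The 25 largest rises included the nucleoside transporter gene Slc28a3, the water channel gene Aqp5, the lipid enzyme gene Acsl4 and 8 interferon-induced genes. Slc28a3 (chr13:58545399-58610877 in mm10) encodes a transporter that takes up nucleosides together with sodium. It stood at 366, 301 and 176 CPM with vehicle and 4465, 1235 and 4535 CPM with AP20187. The lowest AP20187 library, number 2, was above every vehicle library, and the change was 3.60 ± 0.52 (SE), adjusted p = 0.0066. Nt5e, the surface enzyme CD73 that turns AMP into adenosine, went from 50.8, 70.2 and 46.7 CPM to 346, 170.4 and 246 CPM (2.18 ± 0.27 (SE), adjusted p = 0.0059). Slc29a1, a carrier that lets nucleosides cross in either direction, went from 155, 159 and 124 CPM to 431, 489.9 and 427 CPM (1.62 ± 0.15 (SE), adjusted p = 0.00494). Upp1, the uridine phosphorylase, went from 10.6, 15.4 and 15.6 CPM to 44.6, 21.8 and 43.9 CPM (1.40, adjusted p = 0.0148), and its call was lost without vehicle 1 (0.0528). In each of these 4 genes the groups did not overlap, and AP20187 2 was the lowest treated library in 3 of them. Nt5e, Slc29a1 and Upp1 were put beside Slc28a3 after their values had been seen.

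Acsl4 (chrX:142317993-142390535) encodes the acyl-CoA synthetase that prefers arachidonic acid. Its level was 130.5, 159 and 84.5 CPM with vehicle and 973, 695 and 656 CPM with AP20187, a change of 2.64 ± 0.27 (SE), adjusted p = 0.00513. Chn2 (chr6:54039554-54301810), which encodes beta2-chimaerin, a diacylglycerol-binding inhibitor of the GTPase RAC, was at 28.0, 39.7 and 12.8 CPM and 251, 209 and 204 CPM (3.04 ± 0.37 (SE), adjusted p = 0.0059). Every treated library exceeded the vehicle libraries several-fold in both genes, and vehicle 3 was the lowest library. The water channel gene Aqp5 (chr15:99590782-99594829) also had vehicle 3 lowest, with 80.3, 118 and 24.0 CPM and then 443, 585 and 498 CPM (2.78 ± 0.49 (SE), adjusted p = 0.0092). Sowahb rose from 28.8, 33.5 and 16.6 to 163, 142 and 119.8 CPM (2.43, adjusted p = 0.0059). The zinc finger gene Zfp334 rose from 12.1, 11.8 and 6.09 to 61.3, 44.5 and 58.5 CPM (2.45, adjusted p = 0.0059). Mfi2 encodes the iron-binding melanotransferrin and rose from 5.49, 9.24 and 3.08 to 24.1, 34.6 and 29.4 CPM (2.30, adjusted p = 0.00777). Iron carriers and stores were also among the 10 largest rises by CPM difference: transferrin, Trf, went from 1818, 2075 and 744 to 7605, 6842 and 7543 CPM (2.25, adjusted p = 0.00755), and the ferritin heavy chain gene Fth1 from 949, 1146 and 947 to 2483, 1881 and 2911 CPM (1.26, adjusted p = 0.00755). These genes kept the 2 groups apart in all 6 libraries.

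Klk10, a secreted serine protease, stood at 12.8, 33.4 and 9.23 CPM with vehicle and 195, 259 and 376 CPM with AP20187 (3.90, adjusted p = 0.0059). Spp1, the secreted phosphoprotein osteopontin, stood at 438, 781 and 257 and 4746, 3867 and 6248 CPM (3.33, adjusted p = 0.0059). Both were more than 4-fold above the highest vehicle library in every treated one.

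Some of the largest rises rested on fewer libraries. Atp12a, a proton-potassium pump subunit, was at 11.2, 13.4 and 6.64 CPM with vehicle and 45.5, 23.1 and 156 CPM with AP20187 (2.84, adjusted p = 0.0187). AP20187 3 was far above the other two, and the call was lost without vehicle 1 (0.0548) or vehicle 3 (0.077). Pigr, the receptor that carries IgA across epithelium, was at 59.3, 74.9 and 6.85 and 293, 223 and 202 CPM (2.35, adjusted p = 0.0393). Vehicle 3 was far below the other vehicle libraries, and the call was lost without vehicle 1 (0.0837) or AP20187 1 (0.0891). Oas3, an antiviral oligoadenylate synthetase, had the largest fitted rise of all, from 1.70, 1.95 and 0.249 to 54.2, 4.04 and 6.75 CPM (4.05 ± 1.10 (SE), adjusted p = 0.0316). Most of it came from AP20187 1, and its call was lost without vehicle 1 (0.0801) or vehicle 2 (0.0567) or vehicle 3 (0.0961) or AP20187 1 (0.0964). Its relative Oas1a rose from 10.7, 12.9 and 3.71 to 95.6, 32.5 and 39.3 CPM (2.62, adjusted p = 0.0138), and the immunity GTPase gene Igtp from 41.1, 45.1 and 37.3 to 611, 137 and 194 CPM (2.93, adjusted p = 0.00889). AP20187 1 was the highest library in all 3 of these genes. They belong to 8 interferon-induced genes among the 25 largest rises, with Oas2, Cmpk2, Gbp4, Gbp6 and Gbp10, of which each lost its call without at least 1 library.

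**Figure D2:**
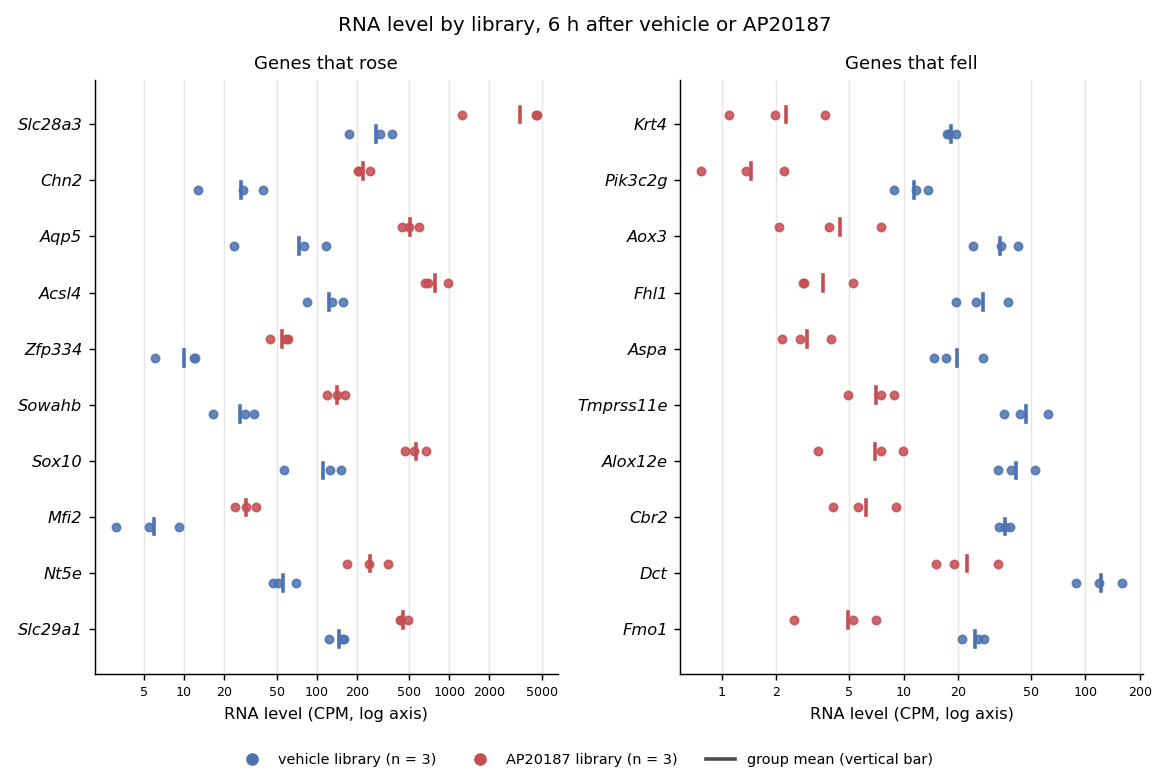
RNA level in CPM on a log axis (x axis) for 10 genes that rose and 10 that fell (y axis), with each vehicle library in blue, each AP20187 library in red and the group mean as a vertical bar. The groups do not overlap in any of the 20 genes, and Slc28a3 has 1 treated library, at 1235 CPM, well below the others.

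Promoters of Igtp, Oas1a, Oas3 and Zfp334 are shown because each holds the same short motif, which the promoter of Cmpk2 did not hold. The interferon-stimulated response core is GAAA, 2 free bases and GAAA, and is the kind of site that interferon regulatory factors bind. It was searched on both strands, where overlapping matches count separately, in RefSeq promoters (build GRCm38.p6, 250 bases before to 50 after each start). It lay in 5 of the 15 largest rises that had a promoter (33.3%; Igtp, Oas1a, Oas3, Spp1 and Zfp334), in 30 of 701 promoters of all genes that rose (4.28%), in 27 of 747 of genes that fell (3.61%) and in 3.46% of all promoters of genes tested. Capitals mark the motif, and each sequence is upstream of the start and reads in the gene's direction.
Igtp (chr11:58199472-58199555, plus strand): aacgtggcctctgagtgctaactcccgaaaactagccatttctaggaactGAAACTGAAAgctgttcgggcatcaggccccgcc
Oas1a (chr5:120907526-120907595, minus strand): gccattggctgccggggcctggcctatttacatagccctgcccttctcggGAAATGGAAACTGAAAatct
Oas3 (chr5:120777675-120777784, minus strand): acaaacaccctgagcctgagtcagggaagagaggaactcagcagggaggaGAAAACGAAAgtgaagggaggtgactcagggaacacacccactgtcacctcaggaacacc
Zfp334 (chr2:165388260-165388324, minus strand): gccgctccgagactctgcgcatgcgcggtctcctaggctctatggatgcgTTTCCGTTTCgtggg
In Igtp the motif begins 34 bases before the start and in Oas3 75 bases before it, while Oas1a has 2 overlapping copies, the first of which begins 20 bases before it. Zfp334, which is not counted among the interferon-induced genes, carries the motif on the other strand. A match describes letters in this window and shows no binding.

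The 25 largest falls included genes of oxidation and detoxification, surface epithelium and pigment synthesis. Among them were also the fibroblast marker Dcn (-2.59), the adipocyte marker Fabp4 (-2.47), the fibrinogen gene Fgb (-2.98) and the haptoglobin gene Hp (-2.74). Aox3 (chr1:58113130-58200698), an aldehyde oxidase, was at 34.4, 24.1 and 42.8 CPM with vehicle and 3.87, 7.48 and 2.06 CPM with AP20187 (-2.92 ± 0.46 (SE), adjusted p = 0.00728). Cbr2, a carbonyl reductase, was at 38.6, 33.6 and 36.2 and 4.09, 9.04 and 5.60 CPM (-2.54 ± 0.29 (SE), adjusted p = 0.0059), and the flavin-containing monooxygenase gene Fmo1 at 25.8, 21.0 and 27.5 and 5.30, 7.06 and 2.52 CPM (-2.32 ± 0.36 (SE), adjusted p = 0.00704). In these 3 genes AP20187 2 was the highest treated library and still lay below every vehicle library. Genes of surface epithelium followed: Krt4 (chr15:101918535-101924735), a keratin of stratified mucosa, was at 19.5, 17.7 and 17.4 and 1.96, 3.69 and 1.10 CPM (-3.02 ± 0.42 (SE), adjusted p = 0.00625). Tmprss11e, a membrane-bound serine protease, was at 43.9, 35.7 and 62.2 and 7.53, 8.84 and 4.93 CPM (-2.73, adjusted p = 0.00571). Alox12e, an epidermal lipoxygenase, was at 38.8, 33.1 and 52.5 and 7.51, 9.94 and 3.39 CPM (-2.58, adjusted p = 0.00684). Not one treated library reached the vehicle range in these genes.

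Of the pigment genes, Dct, Tyrp1 and Pmel fell, and no list of such genes was counted. Dct, the dopachrome tautomerase, was at 118, 89.0 and 159 CPM with vehicle and 19.0, 33.1 and 15.1 CPM with AP20187 (-2.44 ± 0.33 (SE), adjusted p = 0.00625). Tyrp1, another melanin synthesis enzyme, was at 51.2, 34.6 and 66.2 and 9.78, 12.5 and 7.09 CPM (-2.37, adjusted p = 0.0059). Pmel, which builds the melanosome fibrils and was added after its values had been seen, was at 39.4, 29.6 and 45.3 and 8.59, 11.6 and 6.22 CPM (-2.11, adjusted p = 0.0059). Other large falls were Pik3c2g, a class II PI3-kinase, from 11.8, 8.91 and 13.6 to 1.36, 2.20 and 0.774 CPM (-2.98, adjusted p = 0.00625), and the LIM-domain gene Fhl1, from 24.9, 19.5 and 37.4 to 2.81, 5.24 and 2.84 CPM (-2.91, adjusted p = 0.0059). Aspa, which cleaves N-acetylaspartate, fell from 17.1, 14.7 and 27.2 to 2.69, 3.97 and 2.14 CPM (-2.75, adjusted p = 0.0059). Whether these falls come with fewer stromal, nerve or pigment cells was not tested.

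Beyond single genes, 38 lists of pathways and families were counted. Shares of members that rose exceeded the 12.4% of all genes most in 3 glycan lists, and shares that fell exceeded 13.9% most in the elastic matrix and complement lists. Over these and 9 marker lists, 24 of 47 counts of rises and 32 of 47 counts of falls moved by more than 1.5 times without vehicle 1, 31 and 37 without vehicle 3 and 23 and 36 without AP20187 1, against 10 and 4 without vehicle 2, 5 and 7 without AP20187 2 and 8 and 14 without AP20187 3. Lists were drawn up with earlier results of these data known, so their counts describe these libraries and are no independent evidence. Gne, Slc35a1, Gfpt1, Rpn1, Stt3a, Stt3b, Uggt1, Got1, Nqo1, Itpr2, Ctnnb1 and Frs2 are named for their place in a pathway and were chosen after their values had been seen.

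**Figure D3:**
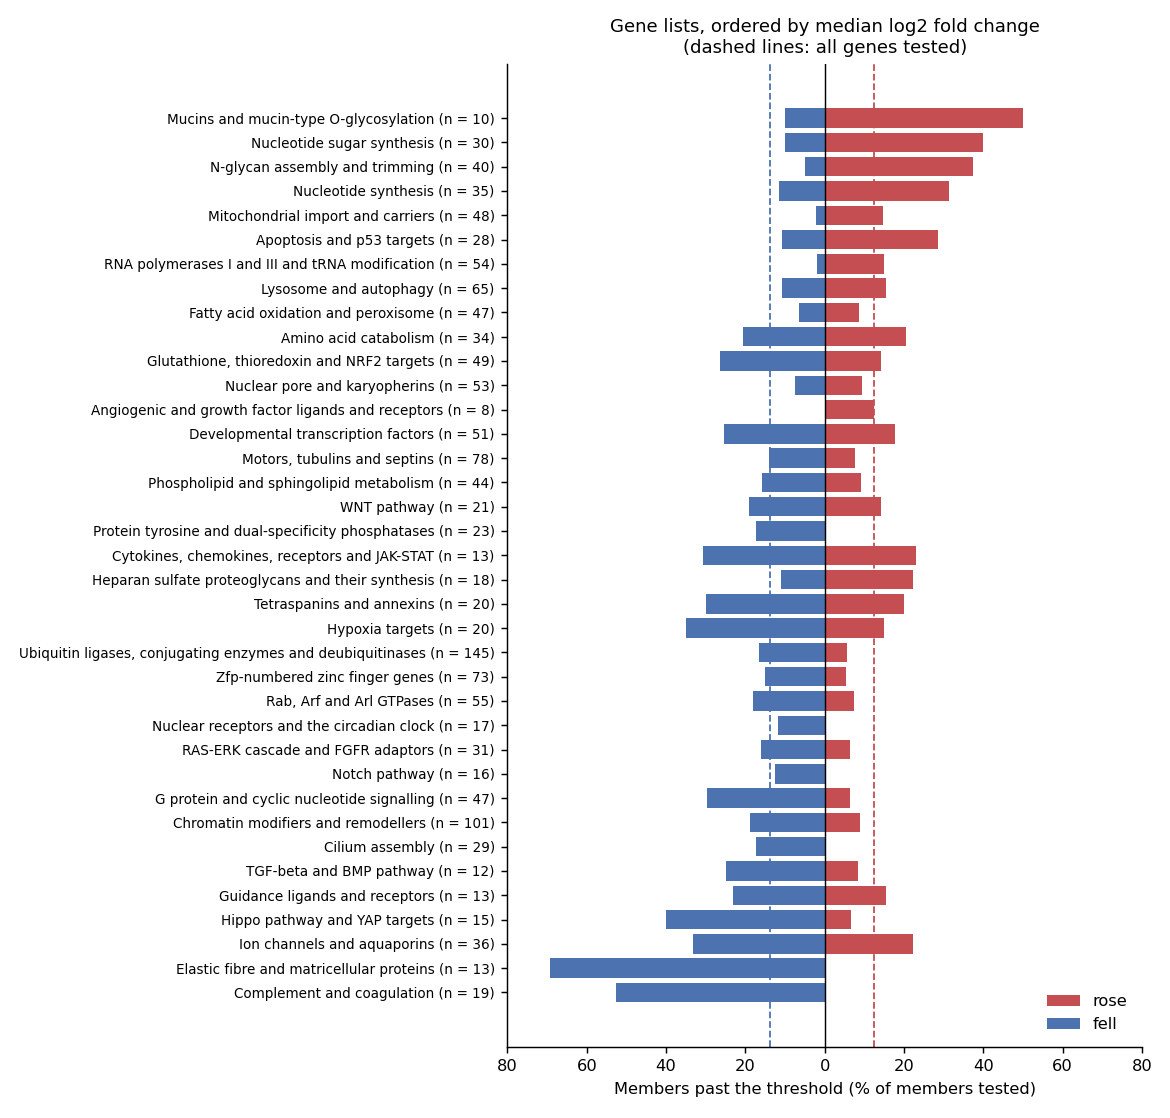
Percentage of tested members that fell (blue, to the left) or rose (red, to the right) in 37 of the 38 gene lists (y axis, with the number tested), ordered by median log2 fold change. Dashed lines mark the shares of all genes tested, 13.9% that fell and 12.4% that rose, and the 3 lists at the top are mucin-type glycosylation, nucleotide sugars and N-glycans.

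Genes of glycan synthesis made up the 3 lists with the highest medians. Of 30 genes that make or transport nucleotide sugars, the activated building blocks of glycans, 12 rose and 3 fell (median 0.36). Genes of successive steps to activated sialic acid were among the rises. Gne, whose product starts sialic acid synthesis, was at 61.3, 69.1 and 49.1 CPM with vehicle and 114, 160.0 and 97.7 CPM with AP20187 (1.05 ± 0.21 (SE), adjusted p = 0.0128), and its call was lost without vehicle 3 (0.0557). Nans, the sialic acid synthase, was at 48.2, 68.4 and 33.5 and 168, 162 and 154 CPM (1.69 ± 0.24 (SE), adjusted p = 0.00654). Cmas, which couples sialic acid to CMP, was at 71.1, 113 and 55.8 and 237, 209.9 and 257 CPM (1.55 ± 0.25 (SE), adjusted p = 0.00755). Treated libraries were tightly grouped in Nans and all above the vehicle range in these 3 genes. Slc35a1, which carries CMP-sialic acid into the Golgi, rose more weakly, from 33.0, 51.0 and 28.6 to 59.2, 68.0 and 67.0 CPM (0.78, adjusted p = 0.0336), and its call was lost without vehicle 1 (0.117) or vehicle 3 (0.119) or AP20187 1 (0.0673) or AP20187 2 (0.053) or AP20187 3 (0.0513).

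Enzymes for other sugars rose as well. Gmppb, which makes GDP-mannose, was at 36.1, 41.3 and 31.4 and 101, 70.3 and 79.5 CPM (1.21 ± 0.18 (SE), adjusted p = 0.00684). Mpi, Pgm3, Gmppa, Gnpnat1, Slc35c1 and Tsta3 were also among the rises of this list, with changes of 0.47 to 0.82, and each lost its call without at least 3 of the 6 libraries. The 3 members that fell sit at other branch points. Gfpt2, an isozyme of the first step to hexosamine, was at 97.0, 86.0 and 176 and 26.9, 42.6 and 23.9 CPM (-1.94 ± 0.32 (SE), adjusted p = 0.00801), whereas Gfpt1 stood at 158, 133 and 138 CPM and then at 198, 206 and 145 CPM and did not pass (adjusted p = 0.131). Ugdh, which makes the UDP-glucuronate of glycosaminoglycans, fell from 153, 137 and 192 to 76.8, 86.9 and 119 CPM (-0.77, adjusted p = 0.0257), a call lost without vehicle 1 (0.0664) or vehicle 3 (0.106) or AP20187 1 (0.0885). Galt, of galactose breakdown, fell from 26.1, 25.3 and 28.2 to 17.3, 19.2 and 16.7 CPM (-0.58, adjusted p = 0.029), a call lost without vehicle 1 (0.11) or vehicle 3 (0.123) or AP20187 1 (0.115) or AP20187 3 (0.0673). In the list, 5 members rose and 1 fell without vehicle 1, 4 and 1 without vehicle 3, and 5 and 1 without AP20187 1.

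N-glycans are built on a lipid, moved to new proteins in the endoplasmic reticulum (ER) by the oligosaccharyltransferase and then trimmed. The list for that route also held the cargo receptor gene Mcfd2 and the folding sensor gene Uggt2. Of its 40 genes, 15 rose and 2 fell (median 0.34). The transferase subunit gene Ddost went from 137, 156 and 112 to 224, 251 and 249.9 CPM (0.84 ± 0.15 (SE), adjusted p = 0.00913), and Rpn1, another subunit, from 197, 249.5 and 182 to 370.4, 355 and 427 CPM (0.88, adjusted p = 0.0102). Stt3a, a catalytic subunit that works during translocation, went from 206, 244 and 193 to 348, 310.2 and 357 CPM (0.66, adjusted p = 0.0153) and lost its call without vehicle 1 (0.0664) or vehicle 3 (0.0746) or AP20187 1 (0.0511). Its counterpart Stt3b was at 166, 160 and 166 CPM and then at 171, 198 and 165 CPM, and its groups overlapped (adjusted p = 0.488). The glucosidase gene Mogs, which starts trimming, rose from 60.7, 69.9 and 59.2 to 113, 119.7 and 104 CPM (0.82 ± 0.13 (SE), adjusted p = 0.00755), and the Golgi mannosidase gene Man2a1 from 138, 114 and 124 to 337, 198 and 327 CPM (1.20 ± 0.21 (SE), adjusted p = 0.00882).

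Genes of cargo receptors for glycoproteins were among the rises. Mcfd2 was at 79.9, 106 and 71.7 and 217, 207 and 199 CPM (1.28 ± 0.16 (SE), adjusted p = 0.0059), and Lman1, with which its product forms the receptor for coagulation factors, was at 78.1, 90.2 and 62.4 and 151, 168 and 134 CPM (0.97, adjusted p = 0.00854). The folding sensors moved apart: Uggt1 rose from 149, 143 and 136 to 254, 217 and 212 CPM (0.67, adjusted p = 0.0104), and Uggt2 fell from 13.6, 11.8 and 12.7 to 4.00, 8.08 and 4.45 CPM (-1.20, adjusted p = 0.0235). The call of Uggt1 was lost without vehicle 3 (0.0509) and that of Uggt2 without vehicle 1 (0.0817) or vehicle 3 (0.0796) or AP20187 1 (0.0809). In the N-glycan list 8 members rose without vehicle 1, 6 without vehicle 3 and 10 without AP20187 1, with 0 falls in each of these fits.

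Mucin-type glycans begin with N-acetylgalactosamine, which the GALNT enzymes attach to serine or threonine. Of 10 genes of this list, 5 rose and 1 fell (median 0.72). Galnt2 was at 88.7, 89.4 and 79.9 CPM with vehicle and 281, 147 and 221 CPM with AP20187 (1.33 ± 0.22 (SE), adjusted p = 0.00803). Galnt3 was at 101, 104 and 95.2 and 168, 153 and 172 CPM (0.72 ± 0.12 (SE), adjusted p = 0.00755), and Galnt7 at 22.8, 36.5 and 15.2 and 75.1, 77.0 and 62.5 CPM (1.53 ± 0.29 (SE), adjusted p = 0.0111). Galnt1 rose as well (0.72, adjusted p = 0.0144), a call lost without vehicle 1 (0.061) or vehicle 3 (0.0681) or AP20187 1 (0.0522). St6galnac6, which adds sialic acid, had the largest rise of the glycan lists, from 22.0, 35.7 and 14.8 to 79.1, 101 and 93.2 CPM (1.92 ± 0.30 (SE), adjusted p = 0.00728). Muc1, the gene of a membrane mucin that receives such glycans, went the other way, from 64.3, 46.7 and 62.1 to 37.9, 38.5 and 25.4 CPM (-0.77, adjusted p = 0.0302), and its call was lost without vehicle 1 (0.114) or vehicle 3 (0.113) or AP20187 1 (0.0628) or AP20187 3 (0.0535). Among heparan sulfate genes, where 4 of 18 rose and 2 fell (median -0.06), the proteoglycan gene Sdc1 rose from 182, 219 and 161 to 372, 560.0 and 435 CPM (1.28 ± 0.19 (SE), adjusted p = 0.00689). The epithelial marker sum was higher in the same libraries (ratio 1.56, with 6 of 9 markers up and Krt7 and Krt19 down), and its part in these rises was not tested.

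**Figure D4:**
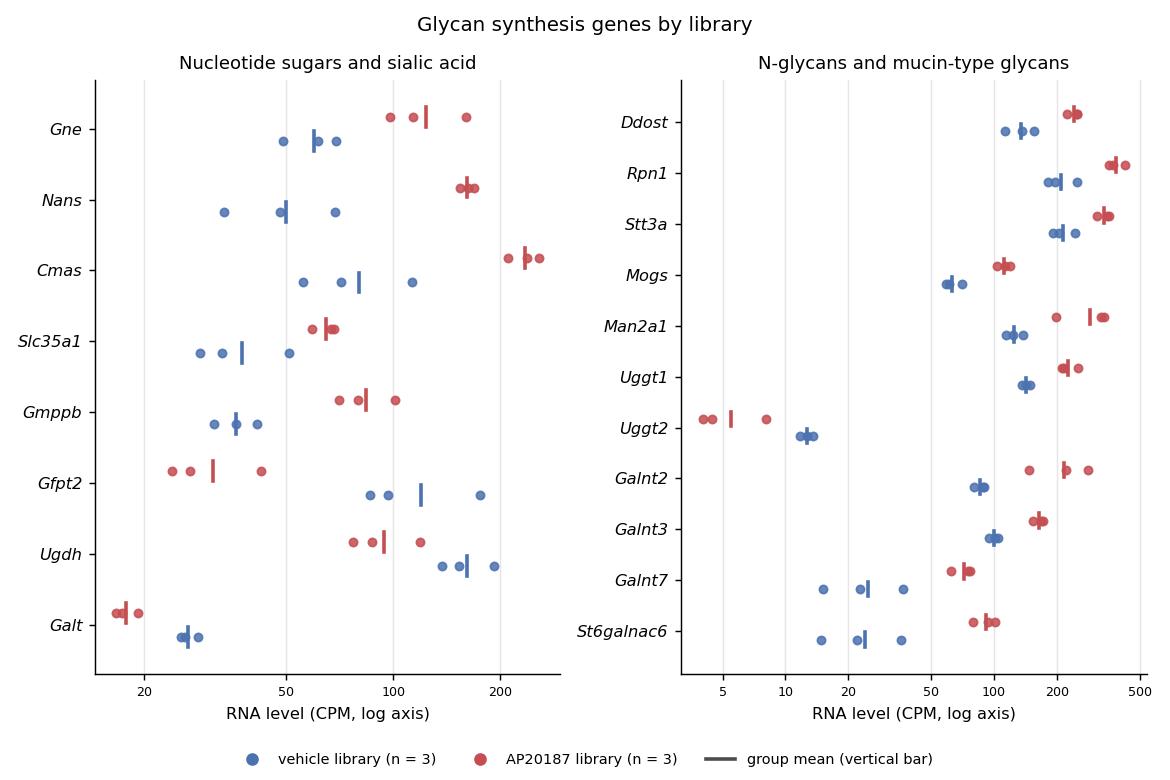
RNA level in CPM on a log axis (x axis) for 8 genes of nucleotide sugars and 11 of N-glycans and mucin-type glycans (y axis), with vehicle libraries in blue, AP20187 libraries in red and group means as vertical bars. Treated libraries lie above vehicle for sialic acid genes such as Nans, and below it for Gfpt2, Ugdh, Galt and Uggt2.

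Genes of ER chaperones were among the rises in the same libraries, though no list of them was counted here. Promoters of 5 genes are shown because they rose and held the ER stress element. That element is a site for ATF6 made of CCAAT, 9 free bases and CCACG. It was searched on both strands of the same windows. It lay in 5 of 701 promoters of genes that rose (0.713%), 0 of 747 of genes that fell and 11 of 5672 of genes tested (0.194%), against 37 of 27025 RefSeq promoters (0.137%). The 5 genes were Calr, Creld2, Hsp90b1, Hspa5 and Pdia6, all of protein folding. Capitals mark the element.
Calr (chr8:84847025-84847143, minus strand): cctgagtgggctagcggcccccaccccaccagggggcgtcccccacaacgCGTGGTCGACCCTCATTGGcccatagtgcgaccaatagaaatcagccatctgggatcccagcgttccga
Creld2 (chr15:88819470-88819588, plus strand): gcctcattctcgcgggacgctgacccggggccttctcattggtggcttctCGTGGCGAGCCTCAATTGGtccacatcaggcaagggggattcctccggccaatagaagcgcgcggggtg
Hsp90b1 (chr10:86705510-86705694, minus strand): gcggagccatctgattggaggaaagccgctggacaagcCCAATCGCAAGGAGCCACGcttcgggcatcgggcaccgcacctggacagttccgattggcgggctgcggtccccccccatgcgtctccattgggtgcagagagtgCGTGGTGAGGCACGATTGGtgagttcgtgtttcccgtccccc
Hspa5 (chr2:34772020-34772048, plus strand): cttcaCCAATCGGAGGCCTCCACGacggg
Pdia6 (chr12:17266441-17266544, plus strand): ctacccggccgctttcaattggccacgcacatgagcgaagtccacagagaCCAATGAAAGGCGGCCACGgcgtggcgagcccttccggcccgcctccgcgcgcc
Hsp90b1 holds 2 elements in opposite orientation, and the other 4 hold 1. All lie before the RefSeq start. In Hspa5 the element is inside the gene as a second annotation, GENCODE, draws it, so only 5 bases on either side are shown. Creld2, like the other promoter genes named after its values had been seen, rose from 42.2, 57.4 and 35.4 to 158, 116 and 162 CPM (1.69 ± 0.21 (SE), adjusted p = 0.0059), and Hspa5, the chaperone BiP, from 2263, 2627 and 2741 to 4357, 3969 and 4368 CPM (0.73, adjusted p = 0.018). The call of Hspa5 was lost without vehicle 1 (0.0904) or vehicle 3 (0.0556) or AP20187 1 (0.069), that of Calr without vehicle 1 (0.119) or vehicle 3 (0.114) or AP20187 1 (0.0692) or AP20187 3 (0.09) and that of Pdia6 without vehicle 1 (0.0694) or vehicle 3 (0.0784). None of the 33 promoters of the N-glycan list or the 22 of the nucleotide sugar list held the element.

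Amino acid and nucleotide genes changed in both directions. Of 34 genes of amino acid breakdown, 7 rose and 7 fell (median 0.08), and members that handle glutamate took opposite sides. Gpt2, the mitochondrial alanine aminotransferase, was at 61.1, 67.6 and 42.5 CPM with vehicle and 155, 142 and 134 CPM with AP20187 (1.33 ± 0.18 (SE), adjusted p = 0.00625). The cytosolic isozyme gene Gpt was at 17.3, 18.6 and 17.0 and 6.07, 8.36 and 5.93 CPM (-1.38 ± 0.21 (SE), adjusted p = 0.00704). Oat, which links ornithine to glutamate, was at 185, 186 and 232 and 70.5, 86.6 and 98.2 CPM (-1.24 ± 0.16 (SE), adjusted p = 0.00625). Groups were apart in all 3 genes. Cdo1, of cysteine breakdown, fell from 62.2, 57.1 and 59.9 to 13.9, 25.2 and 10.1 CPM (-1.86, adjusted p = 0.00803). Got1, the cytosolic aspartate aminotransferase, rose from 282, 263 and 146 to 785, 377 and 679.9 CPM (1.41, adjusted p = 0.0187), but lost its call without vehicle 3 (0.0629) or AP20187 1 (0.0531). In the list 3 rose and 4 fell without vehicle 1, 2 and 4 without vehicle 3, and 2 and 4 without AP20187 1.

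The sequence TGATGCAAT, a form of the element bound by C/EBP and ATF factors, was found upstream of the RefSeq start of 3 genes that rose. These are genes of amino acid use or folding. In Aars the match lies inside the gene as a second annotation, GENCODE, draws it, so only 5 bases on either side are shown. It lay in 4 of 701 promoters of genes that rose (0.571%), 0 of 747 of genes that fell, 0.106% of all promoters of genes tested and 0.222% of all RefSeq promoters. In the fourth, Iars, it lies after the start and is not shown. Capitals mark it on either strand.
Aars (chr8:111033724-111033742, plus strand): tgagcATTGCATCAgccga
Cnpy2 (chr10:128322288-128322396, plus strand): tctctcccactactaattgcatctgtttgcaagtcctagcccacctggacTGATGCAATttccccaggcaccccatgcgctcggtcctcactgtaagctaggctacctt
Pycr1 (chr11:120643793-120643901, minus strand): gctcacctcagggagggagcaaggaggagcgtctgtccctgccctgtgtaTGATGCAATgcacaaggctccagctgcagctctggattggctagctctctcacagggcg
Pycr1, an enzyme of proline synthesis, rose from 5.85, 5.92 and 3.10 to 12.6, 12.5 and 9.22 CPM (1.20, adjusted p = 0.0243), and lost its call without vehicle 1 (0.0563) or vehicle 3 (0.0737) or AP20187 1 (0.077). The call of Aars was lost without vehicle 3 (0.0664) and that of Cnpy2 without vehicle 1 (0.146) or vehicle 3 (0.148) or AP20187 1 (0.0916) or AP20187 2 (0.0515) or AP20187 3 (0.0908).

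Of 35 genes of nucleotide synthesis, 11 rose and 4 fell (median 0.34). Umps, which completes UMP, was at 36.3, 47.8 and 34.4 and 74.8, 72.8 and 79.5 CPM (0.94 ± 0.16 (SE), adjusted p = 0.00838). Cad, which starts pyrimidine synthesis, was at 69.7, 61.0 and 46.4 and 104, 118 and 93.5 CPM (0.83, adjusted p = 0.0148), and Gart, of purine synthesis, at 62.9, 61.0 and 53.7 and 88.9, 96.9 and 84.5 CPM (0.61, adjusted p = 0.0152). Ctps, which turns UTP into CTP, went the other way, from 131, 127 and 195 to 73.6, 83.2 and 76.0 CPM (-0.96 ± 0.18 (SE), adjusted p = 0.0111), as did Impdh2 of GMP synthesis, from 350.0, 299 and 401 to 197, 235 and 255 CPM (-0.61, adjusted p = 0.0286). Calls were lost without vehicle 3 (0.0546) for Cad, without vehicle 1 (0.0517) or vehicle 3 (0.0755) for Gart and without vehicle 1 (0.0917) or vehicle 3 (0.115) or AP20187 1 (0.102) for Impdh2. The list count was 2 rises and 1 fall without vehicle 1, 1 and 1 without vehicle 3, and 6 and 1 without AP20187 1.

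Genes of glutathione use fell more often than they rose, with 13 falls and 7 rises among 49 (median 0.07). Glutathione S-transferases, which attach glutathione to reactive compounds, fell in Gsta4, from 44.4, 49.9 and 51.5 to 11.1, 21.3 and 15.2 CPM (-1.62 ± 0.24 (SE), adjusted p = 0.00684), in Gstm1, from 41.3, 34.9 and 53.5 to 15.2, 21.6 and 12.5 CPM (-1.40 ± 0.25 (SE), adjusted p = 0.00925), and in Gstm2, from 14.1, 14.5 and 20.1 to 3.91, 6.49 and 5.50 CPM (-1.61 ± 0.26 (SE), adjusted p = 0.00766). Nqo1, a quinone reductase, was at 21.1, 22.1 and 27.9 and 4.89, 11.4 and 6.31 CPM (-1.65 ± 0.32 (SE), adjusted p = 0.0115). Not one treated library reached the vehicle range in these 4 genes. Keap1, whose product holds back the factor NRF2, rose from 42.3, 43.7 and 35.0 to 86.7, 67.3 and 66.8 CPM (0.87 ± 0.16 (SE), adjusted p = 0.0104). The glutaredoxin gene Glrx had the largest rise of the list, from 9.83, 23.8 and 7.82 to 87.9, 43.0 and 62.9 CPM (2.23 ± 0.44 (SE), adjusted p = 0.0123). Falls numbered 9 without vehicle 1, 6 without vehicle 3 and 8 without AP20187 1, and 17 with length offsets.

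The largest share of falls outside the matrix was among complement and coagulation genes, where 10 of 19 fell, 0 rose and the median was -1.29. Complement C3 was at 322, 384 and 484 CPM with vehicle and 171, 169 and 135 CPM with AP20187 (-1.32 ± 0.18 (SE), adjusted p = 0.00625). Procr, the protein C receptor, was at 164, 174 and 306 and 52.6, 52.5 and 64.9 CPM (-1.92 ± 0.25 (SE), adjusted p = 0.0059). All treated libraries lay below all vehicle libraries in these genes. Vwf, also an endothelial marker, fell from 191, 127 and 189 to 46.1, 60.3 and 34.9 CPM (-1.84, adjusted p = 0.0059), and the other endothelial markers fell beside it. Elastic fibre and matricellular genes showed 9 falls and 0 rises among 13 (median -0.92), with Lum, Dcn, Mfap5 and Fbn1 shared with the fibroblast markers. Without vehicle 1, without vehicle 3 and without AP20187 1 the falls in that list numbered 4 each, while those of complement and coagulation numbered 8, 7 and 10. Whether they come with fewer stromal cells was not tested.

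In the RAS-ERK cascade 2 of 31 members rose and 5 fell (median -0.15), so that 7 of 31 passed the threshold beside 26.2% of all genes tested, and with length offsets 1 rose and 4 fell. Rasa3, a GTPase-activating protein that switches RAS off, was at 124, 109 and 148 CPM with vehicle and 47.9, 58.7 and 49.1 CPM with AP20187 (-1.29 ± 0.16 (SE), adjusted p = 0.0059). Rps6ka1, the ERK-activated kinase RSK1, rose from 92.0, 93.7 and 67.0 to 156, 208 and 135 CPM (0.98, adjusted p = 0.0132), a call lost without vehicle 3 (0.053). Map2k1, the kinase MEK1, rose from 70.6, 72.2 and 72.7 to 109, 97.0 and 87.5 CPM (0.44, adjusted p = 0.0385), a call lost without vehicle 1 (0.133) or vehicle 2 (0.0587) or vehicle 3 (0.125) or AP20187 1 (0.133). Ptpn11, which encodes SHP2, fell from 492, 373 and 469.5 to 352, 286 and 293 CPM (-0.52, adjusted p = 0.0454), a call lost without vehicle 1 (0.176) or vehicle 3 (0.155) or AP20187 1 (0.0685) or AP20187 2 (0.0832) or AP20187 3 (0.111). The adaptor Frs2 was at 76.6, 66.8 and 78.1 CPM and then at 60.4, 70.6 and 48.3 CPM, which overlap (adjusted p = 0.199). In the list 1 member rose and 1 fell without vehicle 1, 0 and 1 without vehicle 3, and 1 and 3 without AP20187 1. Of 23 phosphatase genes 4 fell and 0 rose, with the largest falls in the receptor-type genes Ptprb, from 126, 84.1 and 148 to 43.8, 51.8 and 32.3 CPM (-1.49 ± 0.25 (SE), adjusted p = 0.00801), and Ptprm, from 61.0, 47.0 and 74.3 to 26.7, 29.1 and 23.6 CPM (-1.20 ± 0.19 (SE), adjusted p = 0.00755), and with length offsets 4 of the list rose and 3 fell. Without vehicle 3 and without AP20187 1 the phosphatase falls numbered 2 each. With all 6 libraries, 13.9% of all genes tested fell and 12.4% rose.

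Calcium and ion channel genes changed in both directions. Of 36 channel and aquaporin genes, 8 rose and 12 fell (median -0.47). Orai1, the pore of store-operated calcium entry, was at 46.1, 55.4 and 40.4 CPM with vehicle and 148, 128 and 131 CPM with AP20187 (1.52 ± 0.15 (SE), adjusted p = 0.00513). Itpr3, an inositol trisphosphate receptor that releases stored calcium, was at 174, 144 and 123 and 411, 411 and 257 CPM (1.29 ± 0.22 (SE), adjusted p = 0.0082). Its relative Itpr2 fell from 182, 123 and 177 to 82.8, 90.2 and 50.1 CPM (-1.11, adjusted p = 0.0164), a call lost without vehicle 1 (0.0556) or vehicle 3 (0.0662). In Orai1 and Itpr3 every treated library exceeded every vehicle library. The ATP-gated channel gene P2rx7 rose from 91.5, 81.6 and 65.8 to 128, 147 and 152 CPM (0.84, adjusted p = 0.0102), and Ano10, of the anoctamin family, from 41.0, 46.0 and 29.0 to 89.9, 89.7 and 80.3 CPM (1.16, adjusted p = 0.00755). Aqp1, the water channel of vessels, fell from 231, 198 and 281 to 70.7, 105 and 77.1 CPM (-1.49 ± 0.19 (SE), adjusted p = 0.0059) while Aqp5 rose. In the list 6 rose and 6 fell without vehicle 1, 5 and 5 without vehicle 3, and 6 and 7 without AP20187 1.

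Among genes of G protein signalling more members fell than rose. Of 47 genes of G protein and cyclic nucleotide signalling, 3 rose and 14 fell (median -0.17). The anchoring protein gene Akap12 had the largest loss of CPM among these, from 995, 657 and 1227 to 319, 246 and 279 CPM (-1.77 ± 0.24 (SE), adjusted p = 0.00625), and Gprc5a, an orphan receptor, fell from 275, 217 and 258 to 133, 154 and 122 CPM (-0.88, adjusted p = 0.00815). Falls in this list numbered 8 without vehicle 1, 2 without vehicle 3, 5 without AP20187 1 and 9 without vehicle 2, and with length offsets 6 rose and 14 fell.

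In the WNT list 3 of 21 members rose and 4 fell (median -0.03), with Wnt1 itself among the rises. Celsr2, a cadherin of planar polarity, rose from 151, 177 and 101 to 368, 461 and 239 CPM (1.32, adjusted p = 0.0146) and lost its call without vehicle 3 (0.0544). Wls, which carries WNT proteins to the surface, fell from 144, 133 and 148 to 69.6, 101 and 73.8 CPM (-0.80, adjusted p = 0.0133), and beta-catenin, Ctnnb1, from 1481, 1394 and 1467 to 993, 1086 and 992 CPM (-0.50, adjusted p = 0.0352). The call of Wls was lost without vehicle 3 (0.0565) or AP20187 1 (0.0513), and that of Ctnnb1 without vehicle 1 (0.14) or vehicle 3 (0.119) or AP20187 1 (0.137) or AP20187 3 (0.101). Hippo genes fell in 6 of 15 and rose in 1 (median -0.43), led by Frmd6, an upstream member, from 181, 122 and 213 to 79.3, 76.9 and 72.6 CPM (-1.17 ± 0.20 (SE), adjusted p = 0.00838). Notch members fell in 2 of 16 with 0 rises, and TGF-beta and BMP members in 3 of 12 with 1 rise. Over all genes tested 13.9% fell and 12.4% rose, and the Notch share of falls was below the first of these. Among 13 cytokine and receptor genes 3 rose and 4 fell. The interleukin 1 receptor partner Il1rap rose from 41.4, 48.2 and 34.6 to 204, 119 and 149 CPM (1.93 ± 0.22 (SE), adjusted p = 0.0059), as did the antagonist Il1rn, from 21.5, 24.4 and 23.1 to 108, 41.5 and 157 CPM (2.15 ± 0.41 (SE), adjusted p = 0.0108), whereas Il6st, the shared receptor chain gp130, fell from 918, 626 and 1019 to 435, 334 and 366 CPM (-1.18 ± 0.21 (SE), adjusted p = 0.0093). Without vehicle 1, vehicle 3 and AP20187 1, the Hippo falls numbered 1, 1 and 2, the TGF-beta and BMP falls 2, 0 and 1, the cytokine falls 3, 2 and 3, and the WNT list had 2, 1 and 2 rises and 1, 0 and 0 falls.

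Of 51 developmental transcription factor genes, 9 rose and 13 fell (median 0.01). Irx2, an Iroquois homeobox factor, rose from 94.8, 105 and 79.9 to 189, 233 and 158 CPM (1.05 ± 0.18 (SE), adjusted p = 0.00809), and Sox10, a factor of neural crest, from 125, 153 and 56.6 to 541, 666 and 460.1 CPM (2.31 ± 0.34 (SE), adjusted p = 0.00684). Foxp1 fell from 168, 129 and 184 to 66.5, 88.2 and 50.8 CPM (-1.23 ± 0.22 (SE), adjusted p = 0.0097), and Erg, a factor of endothelium, from 34.5, 28.9 and 46.1 to 14.4, 11.3 and 14.1 CPM (-1.46 ± 0.21 (SE), adjusted p = 0.00678), beside the lower endothelial markers. The rise of Sox10 stood beside lower levels of the Schwann cell markers. Zeb2, of mesenchymal cells, fell from 56.0, 48.2 and 84.3 to 22.7, 28.9 and 16.8 CPM (-1.46, adjusted p = 0.00971). Among 73 genes with a Zfp number 4 rose and 11 fell (median -0.10), beside 12.4% and 13.9% of all genes tested. Zfp750, an epidermal differentiation factor, rose from 33.4, 45.5 and 19.8 to 147, 216 and 98.5 CPM (2.23 ± 0.36 (SE), adjusted p = 0.00755), and Zfp703, known as a breast cancer oncogene, from 259.8, 236 and 252 to 531, 429 and 460.2 CPM (0.93 ± 0.14 (SE), adjusted p = 0.00684). The 4 rises in that list passed with each library left out in turn, whereas its falls numbered 2, 1 and 3 without vehicle 1, vehicle 3 and AP20187 1. In the developmental list 3 rose and 6 fell without vehicle 1, 2 and 4 without vehicle 3, 4 and 5 without AP20187 1, and 5 and 14 without AP20187 2, and with length offsets 15 rose and 12 fell.

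Chromatin genes fell in 19 of 101 and rose in 9 (median -0.23). The demethylase gene Kdm3a was at 563, 419.5 and 617 CPM with vehicle and 248, 227 and 240.0 CPM with AP20187 (-1.16 ± 0.17 (SE), adjusted p = 0.00664), and the deacetylase gene Sirt1 at 273, 211 and 317 and 148, 136 and 151 CPM (-0.88 ± 0.16 (SE), adjusted p = 0.0104). Dnmt1, which copies DNA methylation, rose from 279, 275 and 195 to 461, 428 and 374 CPM (0.76, adjusted p = 0.0195), a call lost without vehicle 3 (0.0726) or AP20187 1 (0.062). Many members are long, and with length offsets 15 fell, 12 rose and the median was -0.10. In that fit 1098 of all 7314 genes fell and 1057 rose. Ubiquitin ligases, conjugating enzymes and deubiquitinases fell in 24 of 145 and rose in 8 (median -0.10), beside 13.9% and 12.4% of all genes tested. With length offsets 25 fell and 13 rose. Trim16 fell most, from 318, 265 and 414 to 100.5, 110.5 and 69.2 CPM (-1.83 ± 0.23 (SE), adjusted p = 0.0059), and Trim11 rose most, from 49.4, 66.8 and 47.9 to 149, 125 and 120.2 CPM (1.27 ± 0.17 (SE), adjusted p = 0.00625). Both lists shrank without 3 libraries: chromatin falls numbered 2 without vehicle 1, 2 without vehicle 3 and 7 without AP20187 1, and ubiquitin falls 4 in each. Falls over all genes shrank too in these fits, from 1013 to 410, 291 and 394.

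Cell death, autophagy and traffic genes were mixed. Of 28 apoptosis genes 8 rose and 3 fell (median 0.19). Bik, a killer protein of the BCL2 family, rose from 22.5, 24.6 and 20.5 to 46.8, 56.1 and 66.2 CPM (1.32 ± 0.17 (SE), adjusted p = 0.0059), whereas Ripk1, a kinase of death receptor signalling, fell from 535, 501 and 791 to 245, 246 and 222 CPM (-1.36 ± 0.19 (SE), adjusted p = 0.0066) and Apaf1, the apoptosome scaffold, from 55.5, 50.9 and 75.3 to 25.9, 31.0 and 22.1 CPM (-1.20 ± 0.20 (SE), adjusted p = 0.00803). Among 65 lysosome and autophagy genes 10 rose and 7 fell (median 0.13), beside 12.4% and 13.9% of all genes tested. With length offsets 13 of them rose and 11 fell. The autophagy kinase gene Ulk1 fell from 440.0, 342 and 402 to 169.5, 206 and 148 CPM (-1.18 ± 0.17 (SE), adjusted p = 0.0066) and Map1lc3b, which coats autophagosomes, from 305, 298 and 328 to 166, 180.5 and 174 CPM (-0.84 ± 0.12 (SE), adjusted p = 0.00647), while the protease gene Ctsb rose from 625, 778 and 576 to 1335, 1233 and 1176 CPM (0.92 ± 0.17 (SE), adjusted p = 0.00951). Small GTPases of traffic fell in 10 of 55 and rose in 4, or 14 and 6 with length offsets, and of 20 tetraspanins and annexins 4 rose and 6 fell, the falls including Anxa1, from 1223, 1362 and 1910 to 681, 650.2 and 765 CPM (-1.10 ± 0.20 (SE), adjusted p = 0.0097). Apoptosis rises numbered 1, 2 and 3, lysosome rises 3, 3 and 4, falls of traffic GTPases 3, 2 and 4 and falls of tetraspanins and annexins 3, 2 and 3 without vehicle 1, vehicle 3 and AP20187 1.

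Hypoxia targets did not move one way. Of 20, 3 rose and 7 fell (median -0.09). Egln3, an oxygen sensor, was at 36.2, 34.8 and 37.2 CPM with vehicle and 77.1, 74.3 and 78.3 CPM with AP20187 (1.09 ± 0.12 (SE), adjusted p = 0.0059), with little spread in either group. The glucose transporter gene Slc2a1 rose from 242, 214 and 215 to 446, 402 and 325 CPM (0.81, adjusted p = 0.0111), a call lost without vehicle 3 (0.0531). P4ha2, of collagen hydroxylation, fell from 38.5, 34.5 and 49.9 to 12.8, 17.1 and 9.44 CPM (-1.64 ± 0.25 (SE), adjusted p = 0.00704) beside the lower fibroblast markers. Falls numbered 3, 3 and 4 without vehicle 1, vehicle 3 and AP20187 1.

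In each of the next lists the share of rises, of falls or of both was below that of all genes tested (12.4% rose, 13.9% fell). Of 48 genes of mitochondrial import and carriers 7 rose and 1 fell (median 0.30). Of 54 of RNA polymerases I and III and tRNA modification 8 rose and 1 fell (median 0.16). Falls were thus few in both lists, and their medians lay above the 0.01 of all genes tested. In the second, the pseudouridine synthase gene Pus1 rose from 29.1, 33.5 and 27.0 to 63.0, 61.7 and 56.6 CPM (1.01 ± 0.14 (SE), adjusted p = 0.00625). Nuclear pore and karyopherin genes rose in 5 of 53 and fell in 4, or 9 and 4 with length offsets, and fatty acid oxidation genes in 4 and 3 of 47. Motor, tubulin and septin genes rose in 6 of 78 and fell in 11, or 10 and 12 with length offsets. Tubb2a, a beta-tubulin, rose from 52.6, 65.0 and 57.3 to 170.1, 134 and 158 CPM (1.40 ± 0.15 (SE), adjusted p = 0.0056), and Tubb4a fell from 19.1, 13.0 and 23.4 to 4.82, 6.98 and 5.46 CPM (-1.69 ± 0.27 (SE), adjusted p = 0.00755). Cilium genes fell in 5 of 29 and phospholipid and sphingolipid genes in 7 of 44, with 0 and 4 rises. Without vehicle 1 and without vehicle 3, mitochondrial rises numbered 1 each, polymerase and tRNA rises 3 each and cilium and fatty acid oxidation calls 0 each, while motor, tubulin and septin genes had 5 rises and 6 falls, then 3 and 4. Nuclear pore genes had 1 rise and 1 fall, then 0 and 0, and phospholipid and sphingolipid genes 2 and 3, then 2 and 2. Without AP20187 1 the rises and falls were 4 and 6 for motors, 1 and 1 for pores and 2 and 2 for phospholipids, and without vehicle 2 there were 13 mitochondrial and 13 polymerase and tRNA rises.

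Footprints from the same pellets, which are a further readout of these samples and not independent ones, mostly moved the way RNA did. Of the 906 genes that rose in RNA, 898 were tested in footprints and 95.4% had a positive change there (median 0.62, against 0.79 in RNA). Of these, 60 rose in footprints (6.68%, against 0.937% of the 7041 genes tested there) and 0 fell. Of the 1013 that fell in RNA, 927 were tested, 90.2% had a negative change, 108 fell (11.7%, against 1.6%) and 0 rose. Slc28a3, Acsl4 and Chn2 were among the rises in footprints, with changes of 3.03, 2.99 and 2.88, as were Nans and Cmas with 1.41 and 1.49. Footprint libraries held 1772969 to 11018709 counts, and their calls turned on single libraries: 0 genes rose and 0 fell without vehicle 1 or without vehicle 2, 3 and 0 without vehicle 3, and 2 and 0 without AP20187 1.

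A group of RNA rises had no counterpart in footprints. Of 117 genes that rose by over 1.5 in RNA and were tested in footprints, 11 had a footprint change under 0.3, and all 11 were histone genes, a group noticed after the values had been seen. Histone mRNAs of this kind normally end without a poly(A) tail, and the RNA libraries were made from poly(A) RNA. Hist1h2be, for example, changed by 2.23 in RNA and by -0.82 in footprints, and its RNA call was lost without vehicle 1 (0.0844) or vehicle 2 (0.0742) or vehicle 3 (0.114) or AP20187 1 (0.0735) or AP20187 3 (0.0648). Histone copies share sequence, so single-gene values are uncertain, and the difference between the assays was not tested. Of 160 genes that fell by over 1.5, 0 had a footprint change above -0.3.

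**Figure D5:**
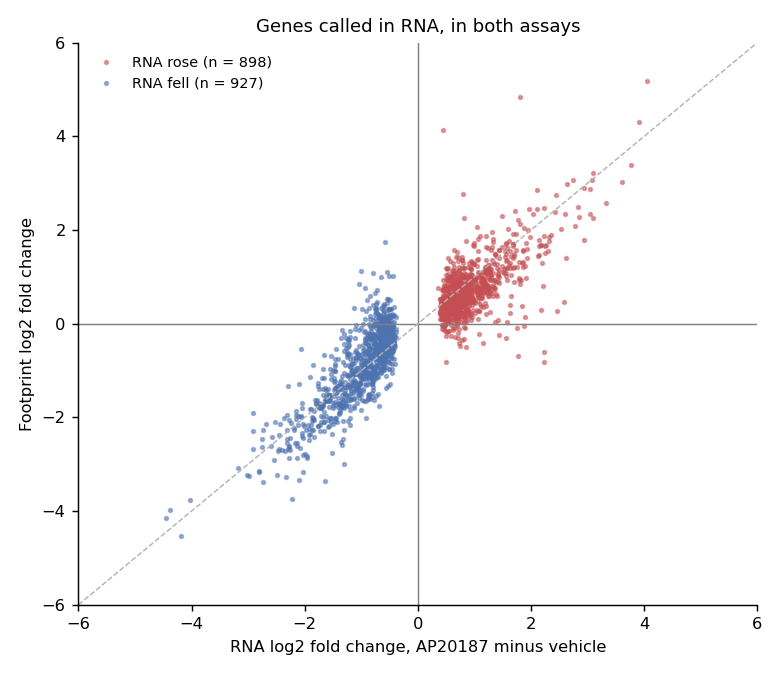
Log2 fold change of AP20187 over vehicle in RNA (x axis) and in footprints (y axis) for genes called in RNA, 898 that rose in red and 927 that fell in blue, with the line of equal change dashed. Most points lie on the same side of 0 in both assays, 95.4% of the rises and 90.2% of the falls, and the red points near or below 0 at an RNA change of about 2 are histone genes.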

How the data were processed

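RNA and ribosome footprints were counted in 12 libraries of mammary gland cells, and the 6 RNA libraries carried the comparison. The table the authors deposited holds whole-number counts for each gene symbol, not normalized. The tools named, per the submitters' processing notes, were HTSeq, STAR, Bowtie2, cutadapt and bcl2fastq 1.8.3, with build mm10. Their roles, settings and strand, and how the listed genes were chosen, were not given in the sources used here. Reads of near-identical copies and of overlapping genes may be split or lost, and 11 symbols stored as dates were not tied to genes.

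After filterByExpr, edgeR 4.0.16 (R 4.3.3) tested each gene by quasi-likelihood on TMM-scaled library sizes, with treatment as the only term, two-sided p-values adjusted by Benjamini-Hochberg and a threshold of 0.05. Footprints were fitted alone in the same way. The procedure was tested on simulated data. Depth was 94513818 to 251874393 counts per RNA library.

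Named were Fgfr1, Wnt1, the 25 largest rises and 25 largest falls whose groups did not overlap and whose mean reached 5 CPM, the 10 largest CPM differences each way, and per list up to 5 members with the smallest p and those against the majority, without predicted genes. Some genes that met this rule, and 1 list, are not reported here. Members and lists were chosen with earlier results of these data known. Alternatives were DESeq2 1.42.0 size factors and test, upper-quartile scaling, no filter, limma 3.58.1 voom, a replicate block, each library left out, and length offsets. Promoter sequences are RefSeq's (GRCm38.p6) and were matched by symbol to 5672 of 7314 genes. Of 10 motifs searched, 3 are described, each in a larger share of promoters of genes that rose than of all genes tested. That does not set them apart. It also held for the E-box CACGTG (14.6% against 12.3%), the nuclear receptor element TGACCTTTG (0.571% against 0.37%) and the AP-1 site TGACTCA. The remaining motifs went the other way, such as the ETS site CCGGAAGT (8.7% against 10.0%). The AP-1 site, not described above, lay in 4 of the 15 largest falls that had a promoter (26.7%). It lay in 6.56% of promoters of genes that fell, 5.42% of genes that rose and 4.35% of genes tested.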

Additional observations from a re-analysis of the deposited data

How the results depend on the processing

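No change of a named gene reversed under any alternative run. With each library left out in turn, genes that rose in RNA numbered 247 to 1048 and genes that fell 291 to 1166, while in footprints they numbered 0 to 84 and 0 to 123. The replicate block gave 620 rises and 661 falls in RNA and 353 rises and 362 falls in footprints. The labels pair samples by number only. Same-numbered RNA libraries were also close in depth, with 251874393 counts in vehicle 1 and 237015762 in AP20187 1. Vehicle 2 and AP20187 2 held 124403219 and 113384539, and vehicle 3 and AP20187 3 held 99484140 and 94513818. In footprints number 1 was not close, at 1867702 and 11018709 counts. Deviations of same-numbered RNA libraries correlated at 0.186, -0.051 and -0.101, and not every library correlated best with its own number. Whether same-numbered libraries were processed together was not tested. The DESeq2 test called 1220 rises and 1269 falls in RNA and 213 rises and 315 falls in footprints. Of 355 named genes, the number that lost their call was 168 without vehicle 3, 133 without vehicle 1, 123 without AP20187 1 and 69 with the block, and it was 31 to 46 for each of the other 3 libraries. Upper-quartile scaling ended 16 calls, voom 6, DESeq2 size factors 3, the DESeq2 test 1 and omission of the filter 1. Length offsets, chosen after seeing the data, ended 16 calls and added 4. The cause was not tested. Both assays had 3 libraries a group, and footprint libraries were shallower, with 1772969 to 11018709 counts against 94513818 to 251874393 in RNA. How far depth and the spread between libraries each limit the calls was not tested.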

Other observations

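Related genes with opposite changes were counted after the values had been seen. Among 531 symbol stems with exactly 2 genes tested, both genes were called in 57 stems. The calls went opposite ways in 22 of the 57, so more pairs moved the same way. Over all genes tested 12.4% rose and 13.9% fell, and whether related genes differ from unrelated pairs was not tested. The pairs below are examples from the 22. The metalloreductase gene Steap3 rose from 38.4, 40.3 and 41.8 to 94.4, 92.5 and 78.7 CPM (1.14 ± 0.13 (SE), adjusted p = 0.0059) while Steap4 fell from 359, 321 and 504 to 155, 152 and 169 CPM (-1.32 ± 0.19 (SE), adjusted p = 0.00628). Papss1, which makes the sulfate donor PAPS, rose from 178, 182 and 145 to 243, 267 and 251 CPM (0.59, adjusted p = 0.0172) and lost its call without vehicle 1 (0.055) or vehicle 3 (0.0764), whereas Papss2 fell from 29.9, 29.1 and 54.7 to 6.35, 7.62 and 5.76 CPM (-2.53 ± 0.28 (SE), adjusted p = 0.0059). Rasal1 rose and Rasal2 fell, 2 genes of RAS GTPase-activating proteins, with changes of 1.68 and -0.84, and the call of Rasal2 was lost without vehicle 1 (0.0588) or vehicle 3 (0.0697). Crabp2 rose from 58.0, 89.8 and 46.0 to 126, 119 and 169 CPM (1.09, adjusted p = 0.0197), a call lost without vehicle 1 (0.0687) or vehicle 3 (0.0697), and Crabp1, the other cellular retinoic acid binder, fell from 16.4, 14.7 and 17.9 to 4.62, 6.62 and 4.10 CPM (-1.68 ± 0.24 (SE), adjusted p = 0.0066). Fabp5 rose (1.26, adjusted p = 0.0183), a call lost without vehicle 1 (0.0596) or vehicle 3 (0.0764), and Fabp4, also an adipocyte marker, fell (-2.47, adjusted p = 0.00664). In Steap3, Rasal1, Papss2, Crabp1 and Fabp4 every treated library lay outside the vehicle range.

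The mouse's own FGF ligands split as well. Fgf2 stood at 1.48, 1.02 and 1.02 CPM with vehicle and 2.50, 2.33 and 2.75 CPM with AP20187 (1.10, adjusted p = 0.0384), and Fgf1 at 27.0, 22.5 and 33.8 and 3.51, 9.89 and 2.40 CPM (-2.40, adjusted p = 0.0138). The call of Fgf2 was lost without vehicle 1 (0.0751) or vehicle 2 (0.0776) or vehicle 3 (0.146) or AP20187 1 (0.104) or AP20187 3 (0.0852), and that of Fgf1 without vehicle 3 (0.0521). Symbols listed as dates, 11 in all, could not be tied to genes, so septin and MARCH members may be missed in these counts.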
